A study of Mus musculus with 4 samples.

Results

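The genes of the NRF2 antioxidant and glutathione system followed here in mouse embryonic stem cells (ESCs) after knockdown of Cnot1 were 10 members taken by symbol from a table of read counts per gene. They are Nfe2l2, Keap1, Hmox1, Nqo1, Gclc, Gclm, Slc7a11, Txnrd1, Srxn1 and Gpx4. All 10 were among the 50559 genes listed, and all 10 had enough counts to be among the 18144 genes tested. CNOT1 holds together the subunits of the CCR4-NOT deadenylase, which shortens the poly(A) tails of mRNAs, and the series asks which transcripts respond when it is depleted. Poly(A)+ RNA of E14 ESCs was sequenced in 4 libraries, 2 biological replicates from cells given siRNA against Cnot1 (siCnot1) and 2 from cells given a non-targeting control siRNA (siNT). Both groups received siRNA at 150 nM and were collected after 48 h. The study's culture section describes ESCs that carry a tdTomato reporter driven by the MERVL promoter. Both groups grew on gelatin with KnockOut serum replacement, with leukaemia inhibitory factor at 1000 U/ml, and with β-mercaptoethanol at 0.1 mM. β-Mercaptoethanol is a thiol reductant that helps cultured cells take up cystine, so all values below are from cells with that supply. Each group is 1 line at 1 time, and the sources used here do not say which siRNA against Cnot1 gave these libraries.

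NRF2, the product of Nfe2l2, is the transcription factor that answers to oxidants and electrophiles. In unstressed cells KEAP1 holds it and passes it to a CUL3 ubiquitin ligase for destruction, so that much of its control takes place on the protein and is not read by RNA-seq. When KEAP1 is modified on its cysteines NRF2 accumulates, pairs with a small MAF protein and binds antioxidant response elements (AREs) near its target genes, where BACH1 competes for the same sites. The targets followed here make glutathione, recycle thioredoxin and peroxiredoxins, and detoxify quinones and haem. GPX4 uses the glutathione to reduce lipid hydroperoxides in membranes and is the enzyme best known for protecting cells from ferroptosis, a death by lipid peroxidation.

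The sequences around ARE-like letters are shown first because NRF2 acts through them. Promoters of 300 bases, from 250 before to 50 after the annotated start, were taken from RefSeq on GRCm38.p6. Of the 10 genes 8 had at least 1 entry, in 13 entries altogether, and Gclc and Hmox1 had none. Each was searched on both strands for the ARE core TGACNNNGC and for TGANTCAGC, an NF-E2 type of site that was added after the Srxn1 promoter had been read. The 2 patterns can overlap. A match to either was found in 4 genes, and the matching letters are in capitals in the 29-base windows that follow, written on the strand of the gene.
Nfe2l2, chr2:75704885-75704913, minus strand: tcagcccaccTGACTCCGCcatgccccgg
Gclm, chr3:122245413-122245441, plus strand: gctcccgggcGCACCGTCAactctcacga
Txnrd1, chr10:82859104-82859132, plus strand: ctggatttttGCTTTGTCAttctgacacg
Srxn1 upstream, chr2:152105469-152105497, plus strand: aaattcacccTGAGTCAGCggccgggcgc
Srxn1 downstream, chr2:152105542-152105570, plus strand: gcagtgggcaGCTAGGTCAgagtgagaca
Relative to the annotated start the matches lay at -240 in Nfe2l2, at -134 in Gclm, at -92 of the second of 3 starts in Txnrd1, and at -45 and 29 in Srxn1. Those of Gclm and Txnrd1 and the downstream one of Srxn1 read as the ARE core on the opposite strand. The upstream match of Srxn1 was the only one of the NF-E2 type. Of all 32851 promoters of this length 12.39% held the ARE core, 1.187% the NF-E2 type and 13.05% either, so the core alone is a frequent set of letters. Nqo1, Keap1, Slc7a11 and Gpx4 had no match, which says only that these letters were not in their windows.

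The upstream 250 bases are given in full for the pair of members with the highest log2 fold changes, Srxn1, with its NF-E2 type letters in capitals, and Nqo1, whose letters were not matched.
Srxn1, chr2:152105274-152105523, plus strand: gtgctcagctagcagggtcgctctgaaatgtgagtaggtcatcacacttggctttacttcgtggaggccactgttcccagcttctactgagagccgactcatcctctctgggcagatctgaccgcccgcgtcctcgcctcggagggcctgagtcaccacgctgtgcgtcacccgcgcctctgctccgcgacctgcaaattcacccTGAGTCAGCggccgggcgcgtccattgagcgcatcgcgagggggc
Nqo1, chr8:107403206-107403455, minus strand: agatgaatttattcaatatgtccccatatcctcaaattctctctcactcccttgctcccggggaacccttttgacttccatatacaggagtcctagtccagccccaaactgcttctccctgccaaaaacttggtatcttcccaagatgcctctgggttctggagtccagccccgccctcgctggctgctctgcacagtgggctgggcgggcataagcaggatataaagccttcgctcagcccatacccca
The Srxn1 promoter was 64.3% G and C over its 300 bases and held 26 CpGs, against 53.7% and 5 CpGs for Nqo1. Both held 2 GC boxes (GGGCGG on either strand), letters found in 35.66% of all promoters.

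Libraries were of similar depth, with 32135824 to 32557440 counts on genes. Counts were scaled with edgeR's TMM factors to normalized CPM (counts per 1e+06 counts), so that 3 counts equal 0.0896 to 0.0964 CPM. They were compared with edgeR's quasi-likelihood test and Benjamini-Hochberg adjustment over all tested genes, and a gene is said to have risen or fallen where the adjusted p was under 0.05. Cnot1 stood at 913 and 986 CPM in siNT and at 185 and 192 CPM in siCnot1, which is a fall by 2.33 on the log2 scale (edgeR adjusted p = 2.37e-18). All 8 pluripotent cell markers were detected in every library, and 6 of them fell, with log2 fold changes over the 8 from -0.45 to -0.08. Their summed level was 6827 and 6494 CPM in siNT and 5412 and 5655 CPM in siCnot1. That of 6 primitive endoderm markers was 14.8 and 12.6 CPM in siNT and 22.9 and 22.1 CPM in siCnot1. For 6 trophoblast markers the sum was 61.8 and 64.6 CPM in siNT and 45.9 and 45.8 CPM in siCnot1. The part of such shifts in cell state, or of the tdTomato-positive cells the study reports, in the results that follow was not tested. In bulk RNA a different mix of cells and a different amount of RNA per cell cannot be told apart.

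Nfe2l2, Nqo1, Gclc, Srxn1 and Gpx4 rose after Cnot1 knockdown. Their fold changes ran from 1.15 for Nfe2l2 to 1.81 for Srxn1. The libraries are of poly(A)+ RNA and CNOT1 belongs to a deadenylase. Whether tail length affected the capture of these mRNAs was not tested. Among all tested genes 15.0% rose and 14.7% fell, and among the 10 members 5 rose and 0 fell. The members were chosen with earlier results of these data known, so this count describes them and does not test them as a group. In siNT level Slc7a11 stood at percentile 40.4 of tested genes, Srxn1 at 62.1 and the other members higher. The background thus includes many genes with fewer counts. By DESeq2 and by limma-voom, on the same libraries, 5 rose and 0 fell as well. By any of the 3 tools 0 members had a negative log2 fold change with an unadjusted p under 0.05. The median log2 fold change of the members was 0.22, beside 0.01 for all tested genes. By edgeR, DESeq2 and limma-voom 0 members reached the thresholds of the study, a doubling or halving of the level at an unadjusted p of at most 0.05, which 6.18% of tested genes passed upward and 1.80% downward by edgeR. Both siCnot1 libraries stood above both siNT libraries in 5 members and below them in 1, Gclm, while 4 members overlapped. Of all tested genes 32.7% and 31.2% were separated upward and downward in that way, so separation of 2 libraries from 2 is common in these data.

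**Figure D1:**
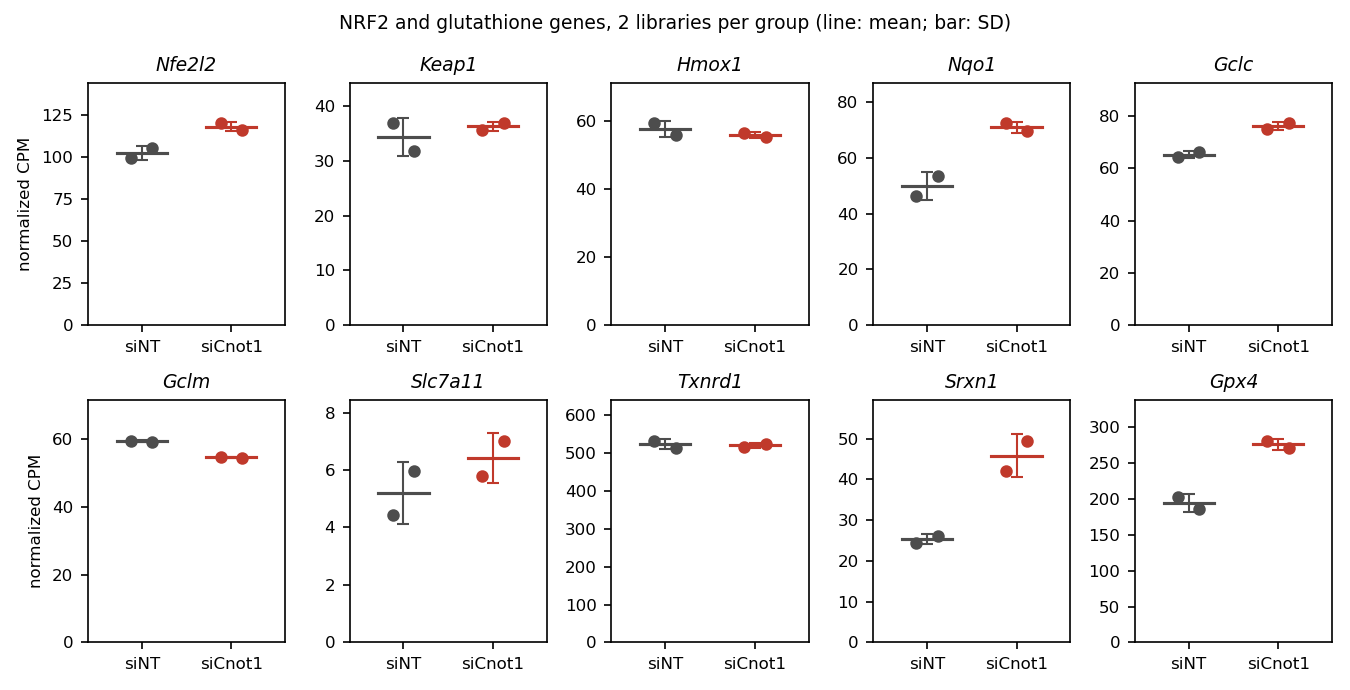
Normalized CPM of the 10 genes in each of the 4 libraries, with siNT in grey and siCnot1 in red, and on every axis a line for the mean and a bar for the SD (n = 2). The groups separate upward in Nfe2l2, Nqo1, Gclc, Srxn1 and Gpx4, with Srxn1 at 24.4 and 26.2 CPM in siNT and 42.1 and 49.5 CPM in siCnot1, while the groups of Keap1, Hmox1, Slc7a11 and Txnrd1 overlap.

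**Figure D2:**
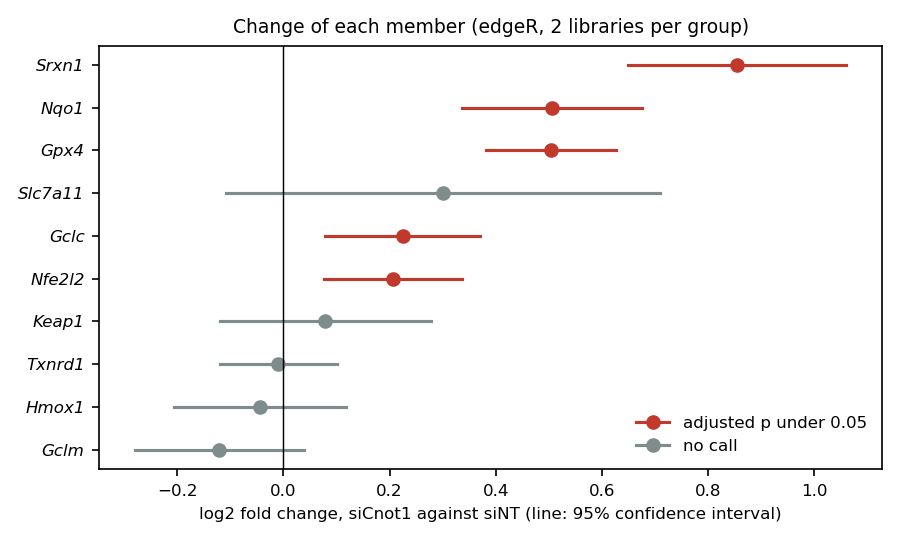
Log2 fold change of siCnot1 against siNT for each gene, ordered by size, with red for an adjusted p under 0.05. The 95% confidence intervals are approximate and derived from the edgeR test. The interval of Srxn1 runs from 0.65 to 1.06 and lies above 0, as do those of Nqo1, Gpx4, Gclc and Nfe2l2, while the interval of Slc7a11, the gene with the fewest counts, runs from -0.11 to 0.71.

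Per kilobase of exon the members spanned a wide range in control ESCs. The order rests on the deposited exon lengths, which were 3352 bases for Nqo1 and 2072 for Gclm. The longest coding transcripts of these genes in GENCODE M21 had 1553 and 5589 bases. With other lengths the order and the levels of ratios per length can differ. Gpx4 and Txnrd1 were the most abundant, at 133 and 130 CPM per kb in siNT, and their libraries overlapped. Hmox1 followed at 36.5, Gclm at 28.7 and Nfe2l2 at 26.8 CPM per kb. Gclc stood at 17.6 and Nqo1 at 14.9 CPM per kb. Keap1 and Srxn1, at 7.69 and 7.42 CPM per kb, overlapped each other. Slc7a11 was lowest, at 0.554 CPM per kb. The libraries of all other neighbours in this order were apart. In siCnot1 Gpx4 stood at 192 and 185 CPM per kb and Txnrd1 at 128 and 131, so that these top genes no longer overlapped. Srxn1, at 12.4 and 14.5 CPM per kb in siCnot1, stood above Keap1 at 7.99 and 8.25.

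The transcription factor gene rose slightly and the gene of its inhibitor had no call. Nfe2l2 lies on chromosome 2 (75505857 to 75535007, minus strand, in the positions of the deposited table, which are not those of GRCm38.p6) and encodes NRF2. It was at 99.6 and 105 CPM in siNT and at 120 and 116 CPM in siCnot1, or 102 ± 4.08 and 118 ± 2.83 CPM (SD, n = 2). Both knockdown libraries were above both controls, by a small margin. The log2 fold change was 0.21 (standard error 0.0632, edgeR adjusted p = 0.0154), a 1.15-fold rise. This call rested on all 4 libraries, since the edgeR adjusted p was 0.180 without siNT replicate 1, 0.0692 without siNT replicate 2, 0.185 without siCnot1 replicate 1 and 0.0954 without siCnot1 replicate 2. Keap1 (chromosome 9, 21141026 to 21150628, minus strand), the sensor that keeps NRF2 low, was at 36.9 and 31.9 CPM in siNT and 35.7 and 36.9 CPM in siCnot1. Its groups overlapped and it had no call (log2 fold change 0.08, 95% confidence interval -0.12 to 0.28, edgeR adjusted p = 0.592), and its log2 fold change was -0.02 without siNT replicate 2. Per length Nfe2l2 stood 3.16 and 3.86 times above Keap1 in the siNT libraries and 3.94 and 3.69 times above it in the siCnot1 libraries, so this ratio overlapped between groups.

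Of the detoxifying targets Nqo1 rose and Hmox1 had no call. Nqo1 encodes a quinone reductase and is a standard readout of NRF2 activity, and lies on chromosome 8 (108114856 to 108139012, minus strand). It was at 46.3 and 53.5 CPM in siNT and 72.3 and 69.4 CPM in siCnot1. Both knockdown libraries were well above the controls, and the means of 49.9 ± 5.13 and 70.8 ± 2.06 CPM (SD, n = 2) differed 1.42-fold (log2 fold change 0.51, standard error 0.0817, edgeR adjusted p = 4.98e-05). The Nqo1 gene as deposited lies 108 bases from Nob1 on the same strand. Nob1 had 4904 and 4582 counts in siNT and 4405 and 4602 in siCnot1 (log2 fold change -0.18). Deposited Nqo1 positions differ from GRCm38.p6 by 726631 bases at the lower position and 735807 at the upper, the start side on the minus strand. For Hmox1, on the same chromosome, both differ by 726628. The counted Nqo1 gene thus appears to start further upstream, and the Nqo1 promoter sequence above may lie within it. Hmox1, which encodes the inducible haem oxygenase and is also repressed by BACH1, lies on chromosome 8 (75820246 to 75827221, plus strand). It was at 59.3 and 55.9 CPM in siNT and 56.5 and 55.1 CPM in siCnot1, and the groups overlapped. Its log2 fold change was -0.04 (95% confidence interval -0.21 to 0.12, edgeR adjusted p = 0.721), and it was 0.06 when library totals replaced TMM.

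Of the members for glutathione synthesis Gclc rose and Gclm had no call. Glutamate-cysteine ligase joins the first amino acids of glutathione, with GCLC as its catalytic and GCLM as its modifier subunit. Gclc (chromosome 9, 77661817 to 77701771, plus strand) was at 64.3 and 66.2 CPM in siNT and 75.2 and 77.3 CPM in siCnot1. The libraries of each group were close to each other and the groups did not overlap, with means of 65.2 ± 1.38 and 76.2 ± 1.45 CPM (SD, n = 2), a 1.17-fold rise (log2 fold change 0.22, standard error 0.0706, edgeR adjusted p = 0.0181). As for Nfe2l2 the call needed all 4 libraries, with an edgeR adjusted p of 0.150 and 0.0888 without siNT replicates 1 and 2, and of 0.120 and 0.183 without siCnot1 replicates 1 and 2. Gclm (chromosome 3, 122039206 to 122060864, plus strand) was at 59.6 and 59.2 CPM in siNT and 54.8 and 54.4 CPM in siCnot1. Both knockdown libraries were below both controls, but the difference missed the threshold (log2 fold change -0.12, 95% confidence interval -0.28 to 0.04, edgeR adjusted p = 0.257). Per length the ratio of Gclc to Gclm stood at 0.602 and 0.625 in the siNT libraries and at 0.766 and 0.793 in the siCnot1 libraries, and so did not overlap between groups, and this ratio was given no test. Gm6061 lies within the Gclm gene on the same strand and had 178 and 193 counts in siNT and 137 and 171 in siCnot1.

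Cystine enters the cell through the antiporter xCT, encoded by Slc7a11, which supplies the cysteine for glutathione. Slc7a11 (chromosome 3, 50319385 to 50403947, minus strand) had 138 and 187 counts in siNT and 194 and 235 counts in siCnot1, the fewest of the members. These equal 4.44 and 5.97 CPM in siNT and 5.79 and 7.02 CPM in siCnot1. The groups overlapped, and no difference was detectable at this depth (log2 fold change 0.30, standard error 0.197, 95% confidence interval -0.11 to 0.71, edgeR adjusted p = 0.277). Deposited Slc7a11 positions differ from GRCm38.p6 by -45551 bases at the lower position and -95140 at the upper. The promoter window searched for Slc7a11 may thus not lie at the start of the counted gene. The partner chain of the antiporter is encoded by Slc3a2 and shared with other amino acid transporters, and its mRNA rose from 198 and 201 CPM in siNT to 237 and 236 CPM in siCnot1 (log2 fold change 0.25, edgeR adjusted p = 0.00158). Without siNT replicate 1 and without siCnot1 replicate 1 its adjusted p was 0.0681 and 0.0506, and Slc3a2 was picked as the partner of Slc7a11 after its values had been seen.

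Among the thiol-recycling members one rose and the other stayed without a call. Srxn1 (chromosome 2, 151946738 to 151953296, plus strand) encodes sulfiredoxin, which returns overoxidized peroxiredoxins to their active form. It had 760 and 821 counts in siNT and 1411 and 1656 in siCnot1, or 24.4 and 26.2 CPM and 42.1 and 49.5 CPM. Every knockdown library was far above every control, although the siCnot1 libraries were more spread than the siNT libraries, with means of 25.3 ± 1.25 and 45.8 ± 5.21 CPM (SD, n = 2). The rise was 1.81-fold (log2 fold change 0.86, standard error 0.0994, edgeR adjusted p = 7.55e-07), the largest of the 10 genes, and 90.4% of all tested genes had a lower log2 fold change. Txnrd1 (chromosome 10, 82669785 to 82733558, plus strand), the cytosolic thioredoxin reductase, was at 533 and 515 CPM in siNT and 516 and 526 CPM in siCnot1. Its libraries overlapped, and with the highest count of the members its interval was narrow (log2 fold change -0.01, 95% confidence interval -0.12 to 0.10, edgeR adjusted p = 0.919). The sign of this value turned with library totals (0.10) and with other settings from a value close to 0. Eid3 and Gm38560 lie within the Txnrd1 gene and had at most 49 counts in a library.

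Gpx4 was the abundant member that rose. The gene (chromosome 10, 79883000 to 79892273, plus strand) had 6317 and 5820 counts in siNT and 9413 and 9054 in siCnot1, or 203 and 186 CPM and 281 and 271 CPM. The groups were clearly apart, at 194 ± 12.3 and 276 ± 7.38 CPM (SD, n = 2). This was a 1.42-fold rise (log2 fold change 0.50, standard error 0.0594, edgeR adjusted p = 8.86e-07). A pseudogene, Gpx4-ps2, can share reads with Gpx4 and had 1265 and 1192 counts in siNT and 1759 and 1694 in siCnot1 (log2 fold change 0.39, edgeR adjusted p = 0.0012), and Gpx4-ps1 had 0 to 8 counts per library. With the counts of Gpx4 and both pseudogenes summed the log2 fold change was 0.49 (standard error 0.0584, edgeR adjusted p = 1.17e-06).

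GPX4 and TXNRD1 are selenoproteins, in which an in-frame UGA codon is read as selenocysteine at the active site. The codons are shown because they set these members apart from the other 8, whose longest coding transcripts in GENCODE M21 held 0 in-frame TGA codons before the stop. The sense strand around each codon reads as follows, with the TGA in capitals.
Gpx4, codon 129 of 253: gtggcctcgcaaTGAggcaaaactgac
Txnrd1, codon 612 of 613: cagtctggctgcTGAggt
These codon numbers are those of the longest coding transcript of each gene in GENCODE M21. In that transcript Gpx4 carries the codon in the middle of its reading frame and Txnrd1 at the last codon but 1. Other transcripts were not read, their codon numbers can differ, and which transcript these cells make was not tested. Of the pair Gpx4 rose, and Txnrd1 was within -0.12 and 0.10 on the log2 scale at 95% confidence. Among 7 genes of selenoprotein synthesis 0 rose and 2 fell by edgeR's adjusted p, beside 15.0% and 14.7% of all tested genes. The median log2 fold change of these 7 was -0.14. The 2 that fell were Eefsec, the elongation factor for selenocysteine (log2 fold change -0.38, adjusted p = 0.00739), and Pstk, the kinase that acts on the selenocysteine tRNA (-0.39, adjusted p = 0.0144). By edgeR, DESeq2 and limma-voom 0 genes of this list rose even at an unadjusted p under 0.05. Both calls were lost under library totals (adjusted p = 0.0508 and 0.0783) and without the filter on low counts (0.0777 and 0.138). With 1 library left out that of Eefsec was lost in all 4 fits and that of Pstk in 3, being kept without siCnot1 replicate 1, and the largest adjusted p was 0.160 and 0.279, without siNT replicate 2 for both.

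**Figure D3:**
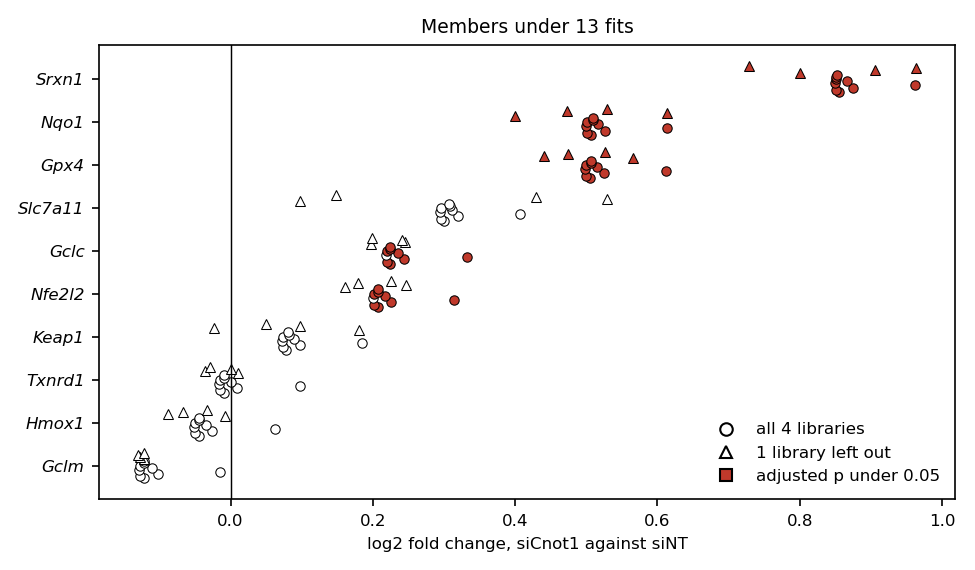
Log2 fold change of each gene under 13 fits, with circles for fits to all 4 libraries, triangles for fits with 1 library left out, and red for an adjusted p under 0.05. Srxn1, Nqo1 and Gpx4 are red in every fit, while Gclc and Nfe2l2 lose the call in all 4 fits that leave a library out and without the filter on low counts.

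Nqo1, Srxn1 and Gpx4 were called in the main test and in each of 12 other fits, with the largest adjusted p being 0.0448, 0.0345 and 0.0225. Nfe2l2 and Gclc were called in 8 of the 13, with all 4 libraries except where the filter on low counts was dropped. When library totals were used for scaling, the median log2 fold change over all tested genes was higher by 0.1072, and the split of calls went from 2719 higher and 2668 lower to 3999 higher and 1563 lower. The 5 members that rose under TMM were also called under library totals.

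Of the 13 partners and regulators of NRF2, 2 rose and 4 fell, beside 15.0% and 14.7% of all tested genes. The median log2 fold change of these 13 was -0.03. Nfe2l1, which encodes the related factor NRF1, was at 258 and 243 CPM in siNT and 323 and 322 CPM in siCnot1 and rose (log2 fold change 0.37, standard error 0.0562, edgeR adjusted p = 2.65e-05). Syvn1, a ubiquitin ligase of the endoplasmic reticulum that can also act on NRF2, rose as well (0.33, adjusted p = 0.0228). Components of the ligases that destroy NRF2 were among those that fell. Cul3, the cullin that KEAP1 adapts, went from 200 and 225 CPM in siNT to 177 and 178 CPM in siCnot1 (-0.26, adjusted p = 0.00238). Its RING partner Rbx1 (-0.22, adjusted p = 0.0222) and Btrc, the adaptor of the GSK3-dependent route (-0.22, adjusted p = 0.0414), fell as well. The small MAF gene Maff fell by 0.76 on the log2 scale (adjusted p = 0.00518), from 9.68 and 6.64 to 4.42 and 5.23 CPM, whereas the more abundant Mafg, at 96.2 and 91.3 in siNT and 99.2 and 102 CPM in siCnot1, and Mafk had no call. Bach1, the repressor at AREs, was at 50.6 and 54.1 CPM in siNT and 48.7 and 52.6 CPM in siCnot1 and overlapped. Bach2, Nfe2l3, Sqstm1 (the p62 adaptor that can sequester KEAP1) and Gsk3b had no call either, with log2 fold changes of 0.03, 0.76, -0.03 and -0.03. Of these 6 calls that of Nfe2l1 held with any 1 library left out, and the others were lost in 3 or 4 such fits, with a largest adjusted p of 0.215 for Maff, 0.109 for Cul3, 0.371 for Rbx1, 0.325 for Btrc and 0.324 for Syvn1. Under library totals the adjusted p was 0.0572 for Cul3, 0.236 for Rbx1 and 0.313 for Btrc, and without the filter on low counts it was 0.0633 to 0.178 for the 5 genes other than Nfe2l1. Btrc was also without a call under upper-quartile scaling (0.0635), and Mafg was called higher under library totals. Per length the ratio of Nfe2l2 to Bach1 stood at 3.43 and 3.39 in the siNT libraries and at 4.30 and 3.84 in the siCnot1 libraries. The groups did not overlap, but this ratio was given no test, and separation of 2 libraries from 2 is common in these data.

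**Figure D4:**
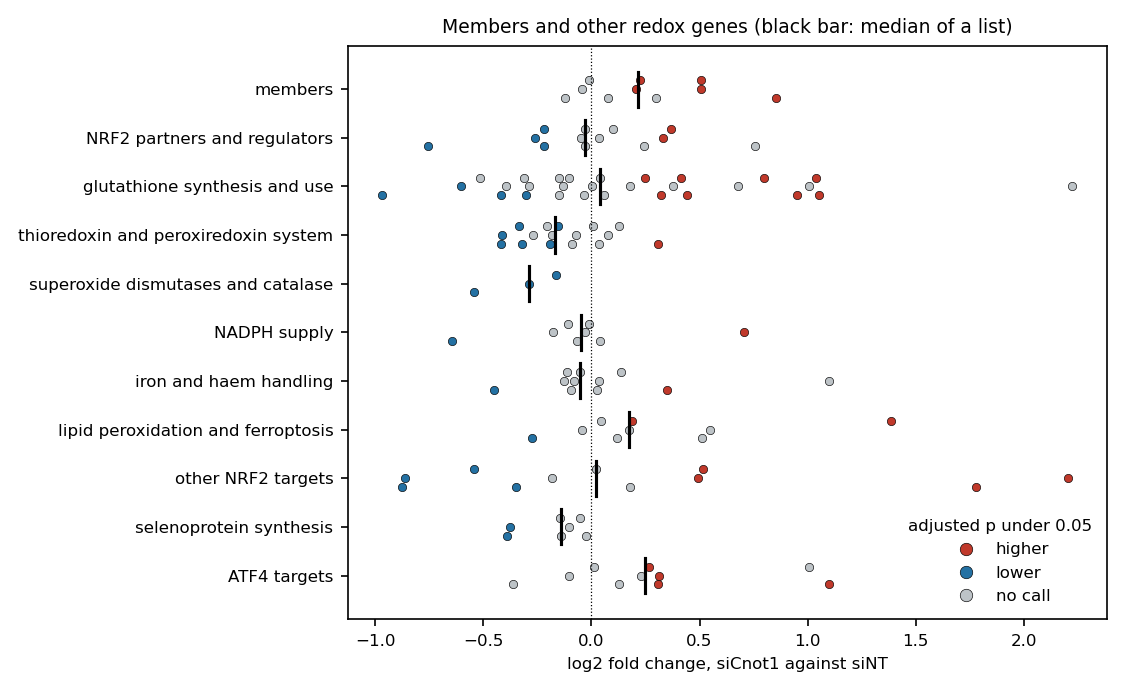
Log2 fold change of siCnot1 against siNT for the members and for the tested genes of 10 other lists, 1 point per gene, with red for genes that rose, blue for genes that fell, grey for no call and a black bar for the median of the list. The members have a median of 0.22 and no blue point, and the thioredoxin and peroxiredoxin list has a median of -0.17 with 6 blue points and 1 red.

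For the list counts that follow, the shares over all tested genes were 15.0% that rose and 14.7% that fell. Across all 120 other genes of the listed pathways 114 were tested, of which 22 rose and 25 fell. Their log2 fold changes had a median of -0.03, and 5 rose and 10 fell without siNT replicate 1. In glutathione synthesis and use 32 genes were listed and 29 tested, of which 8 rose and 4 fell, and the median was 0.04. Ggct, a cyclotransferase that breaks down γ-glutamyl peptides, was at 6.98 and 7.63 CPM in siNT and 14.4 and 13.8 CPM in siCnot1 (log2 fold change 0.95, edgeR adjusted p = 1.81e-05). Gpx3, the secreted glutathione peroxidase (0.80, adjusted p = 4.75e-05), and Abcc1, which exports glutathione conjugates (0.44, adjusted p = 0.000279), also rose. Gsta4, a glutathione transferase and the most abundant gene of the list per length in siNT (422 CPM per kb), had a log2 fold change of -0.15 (adjusted p = 0.0504). Gsta4 was called lower in 3 of 12 other fits, with a smallest adjusted p of 0.0312 by limma-voom. Of the other glutathione peroxidase genes Gpx1, the most abundant of them per length, was at 379 and 381 CPM in siNT and 396 and 395 CPM in siCnot1 and had no call (log2 fold change 0.06, adjusted p = 0.472). Gpx8 rose (1.05), Gpx7 rose (0.41) and Gpx2 fell by 0.97 on the log2 scale, but by DESeq2 Gpx7 and Gpx2 had no call (adjusted p = 0.0586 and 0.0591), nor without the filter on low counts (0.0713 and 0.0897). The transferase genes Gstp1, Gstp2 and Gsta3 fell as well (-0.30, -0.60 and -0.42, edgeR adjusted p = 0.00739, 0.00179 and 0.0324). Gstp1 had no call under library totals (0.0794) and Gsta3 none by DESeq2 (0.0796). Each of them lost its call in some fits with 1 library left out. Gss, also of glutathione synthesis, was lower in both siCnot1 libraries but had no call (-0.29, adjusted p = 0.0793). Gpx1, Gpx2, Gpx7, Gpx8, Gstp1, Gstp2, Gsta3 and Gss were picked after their values had been seen. With any 1 library left out Ggct and Abcc1 kept their calls, Gpx3 lost its call without siNT replicates 1 and 2 (adjusted p = 0.0588 and 0.0699), Gpx8 likewise (0.074 and 0.0615), and the largest adjusted p was 0.138 for Gpx7 and 0.235 for Gpx2.

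In the thioredoxin and peroxiredoxin system 1 of 16 genes rose and 6 fell, with a median of -0.17. Txn1, the thioredoxin that TXNRD1 reduces, was at 252 and 257 CPM in siNT and 200 and 204 CPM in siCnot1 (log2 fold change -0.33, edgeR adjusted p = 7.77e-05). Prdx3, the mitochondrial peroxiredoxin (-0.42, adjusted p = 0.000113), and Prdx6 (-0.32, adjusted p = 0.000114) fell, as did Prdx1, the most abundant of the list per length, from 646 and 643 to 583 and 577 CPM (-0.15, adjusted p = 0.0309). Of the other typical peroxiredoxins, the class that sulfiredoxin repairs, Prdx2 (-0.18, adjusted p = 0.0527) and Prdx4 (0.04, adjusted p = 0.796) had no call, and both were picked after their values had been seen. The list's gene that rose was Sesn2 (0.31, adjusted p = 0.00109), which encodes sestrin 2. All 3 tested superoxide dismutase and catalase genes fell, Cat by 0.54, Sod2 by 0.29 and Sod1 by 0.16 on the log2 scale (adjusted p = 1.93e-06, 0.00124 and 0.0301), and 0 rose at an unadjusted p under 0.05 by edgeR, DESeq2 or limma-voom. With any 1 library left out Txn1, Prdx3, Prdx6 and Cat kept their calls, while the largest adjusted p was 0.156 for Prdx1, 0.0886 for Sesn2, 0.110 for Sod2 and 0.189 for Sod1. Prdx1 and Sod1 also lost their calls under library totals (adjusted p = 0.538 and 0.468) and upper-quartile scaling (0.0588 and 0.0551), and Prdx1, Sod2 and Sod1 without the filter on low counts (0.0531, 0.0521 and 0.0691).

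Further lists each held calls in both directions or few calls. Among 8 genes of NADPH supply, which feeds glutathione and thioredoxin reductases, 1 rose and 1 fell: Nnt, the mitochondrial transhydrogenase (log2 fold change 0.71, edgeR adjusted p = 8.51e-06), and Me1, the malic enzyme (-0.65, adjusted p = 2.76e-07). Taldo1, the most abundant of that list per length, had no call (-0.03, adjusted p = 0.763). Among 11 genes of iron and haem handling Hmox2, the constitutive haem oxygenase, rose (0.35, adjusted p = 0.00575) and Aco1, the iron-responsive aconitase, fell (-0.45, adjusted p = 6.62e-05), while the ferritin heavy chain gene Fth1 had no call (0.14, adjusted p = 0.0653). Fth1 was called higher in 4 of 12 other fits, with a smallest adjusted p of 0.00121 under library totals, and the rises in this list numbered 2 or 3 in those fits. Of 9 genes of lipid peroxidation and ferroptosis, Gch1, which starts tetrahydrobiopterin synthesis, rose from 1.25 and 0.734 to 3.43 and 1.76 CPM (1.38, adjusted p = 0.00716). Slc7a5, which encodes the light chain of a neutral amino acid transporter, rose too (0.19, adjusted p = 0.0141), and Dhodh, a mitochondrial enzyme of pyrimidine synthesis, fell (-0.27, adjusted p = 0.0107). Nnt, Me1 and Aco1 kept their calls with any 1 library left out, while the largest adjusted p was 0.123 for Hmox2, 0.286 for Gch1, 0.231 for Slc7a5 and 0.114 for Dhodh, the last being also without a call under library totals (0.116). Hmox2, Gch1 and Slc7a5 also lost their calls without the filter on low counts (0.0663, 0.122 and 0.090).

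The other known NRF2 targets were split. Of 13 listed 11 were tested, and 4 rose and 4 fell, with a median log2 fold change of 0.02. Ephx1, the microsomal epoxide hydrolase, was at 7.62 and 5.58 CPM in siNT and 25.6 and 19.8 CPM in siCnot1, and rose by 1.78 on the log2 scale (standard error 0.153, edgeR adjusted p = 1.01e-08). Ugdh, which makes UDP-glucuronate for conjugation, went the opposite way, from 64.3 and 62.0 CPM in siNT to 35.8 and 32.9 CPM in siCnot1 (-0.88, adjusted p = 5.62e-08). Cat, which also stands in this list, was its most abundant gene per length and fell, and all 3 kept their calls with any 1 library left out. ATF4 is the amino acid response factor that shares Slc7a11 as a target with NRF2. In a list of 10 genes, made up of Atf4 itself and its targets, 4 rose and 0 fell, with a median of 0.25. The count of this list that fell at an unadjusted p under 0.05 was 1 by edgeR, 0 by DESeq2 and 1 by limma-voom, and after adjustment it was 0 by the other tools too. Atf4 itself rose (0.31, adjusted p = 0.00313), as did Sesn2 and Cth, a source of cysteine from methionine (0.27, adjusted p = 0.00554), whereas Asns, the most abundant of the list per length, had a log2 fold change of -0.10 (adjusted p = 0.17). Atf4, Sesn2 and Cth lost their calls without siNT replicate 1, siNT replicate 2 or siCnot1 replicate 2, with a largest adjusted p of 0.108, 0.0886 and 0.163, and Cth also without the filter on low counts (0.0764).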

How the data were processed

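Per the labels the libraries were strand-specific (dUTP) and paired-end, and the authors deposited raw counts of reads per gene with exon length and gene positions, without normalization or pooling of replicates. The submitters' processing notes name fastp 0.19.4, HISAT2 2.2.1, DESeq2 1.40.2 and mm10. The counting program and its strand setting are not given in the sources used here. Only 2.46% of 48775 genes share a start or end with GRCm38.p6 (mm10), so positions are printed as deposited, and sequences, joined by symbol, on GRCm38.p6.

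Here, genes passing filterByExpr (minimum count 10) were fitted with edgeR 4.0.16 in R 4.3.3 (TMM, quasi-likelihood test, condition as the sole term, Benjamini-Hochberg adjustment). The fit was tested on simulated data with 2-fold changes only, so smaller changes were not simulated. Levels per kb divide CPM by the deposited exon length. Standard errors were derived from the log2 fold change and the F statistic of the quasi-likelihood test, and intervals from these with a t quantile, so both are approximate. Intervals cover the spread between libraries only. Other scalings tried were upper-quartile, library totals and the size factors of DESeq2; other settings were 2 other filters, DESeq2 1.42.0, limma-voom 3.58.1, a replicate block and leaving out each library. The sum of Gpx4 with its pseudogenes was added after seeing the data. Members and gene lists were chosen with earlier results of these data known. Named genes were all members, all NRF2 partners, and per further list up to 3 genes with the smallest adjusted p under 0.05 and the most abundant per length in siNT. Neighbouring genes and pseudogenes were named because they can share reads.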

Additional observations from a re-analysis of the deposited data

How the results depend on the processing

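The number of members that rose was 5 in the main test and 3 without the filter on low counts, where 30308 genes were tested and Nfe2l2 and Gclc had adjusted p of 0.0886 and 0.0761. It was 3 to 3 when 1 library was left out, which leaves 1 group with a lone library assumed to vary like the other group. Of the other pathway genes 22 rose in the main test, 11 without the filter, and 5 to 12 with a library left out (5 and 8 without siNT replicates 1 and 2, and 12 without either siCnot1 replicate). Of these genes 25 fell in the main test, 14 under library totals, 13 without the filter, and 10 to 12 with a library left out. Over all tested genes the calls numbered 2719 higher and 2668 lower, 1303 and 1450 without the filter, and 743 to 1439 and 871 to 1463 with a library left out. Signs turned only in genes without a call: under library totals for Hmox1 (0.0624), Txnrd1 (0.0974), Bach1 (0.0598), Sqstm1 (0.0781), Gsk3b (0.0764), Taldo1 (0.0791), Sephs2 (0.0025) and Asns (0.0021), and for Txnrd1 also under upper-quartile scaling (0.0097) and with at least 1 CPM in 2 libraries (6e-04). With a library left out log2 fold changes ran from -0.0237 to 0.18 for Keap1, -0.0362 to 0.0102 for Txnrd1, -0.11 to 0.0041 for Bach1, -0.17 to 0.20 for Bach2, -0.0692 to 0.0005 for Sqstm1 and -0.10 to 0.0371 for Gsk3b. The causes were not tested. Same-numbered libraries did not deviate together (correlation -0.0136 across 18144 genes). With 2 libraries per group both replicate numbers give this same value, so it cannot decide whether the replicate numbers pair the libraries. With a replicate block 5 members rose, Btrc, Prdx1 and Sod1 had no call (adjusted p = 0.0652, 0.065 and 0.0594), and 2524 genes rose and 2431 fell over all. With 2 libraries per group, Slc7a11 at 138 to 235 counts is the member whose difference is least well measured.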

Other observations

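Fold changes in these libraries varied with exon length and abundance over all tested genes, and the local trend (loess, span 0.3) was taken from each member's value as a description. The log2 fold change above the trend was 0.85 for Srxn1, 0.68 for Gpx4, 0.55 for Nqo1, 0.28 for Nfe2l2 and 0.27 for Gclc. It was 0.16 for Txnrd1, 0.06 for Hmox1, 0.04 for Keap1, -0.01 for Slc7a11 and -0.04 for Gclm. The trend at Slc7a11, a long and weakly expressed gene, was 0.31, beside its own log2 fold change of 0.30. At Gpx4, a short and abundant gene, the trend was -0.18.

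Markers of other cell types were low beside the pluripotent ones, and their part in the results was not tested. Of 5 tested trophoblast markers 1 rose and 1 fell, with summed levels of 61.8 and 64.6 CPM in siNT and 45.9 and 45.8 CPM in siCnot1, nearly all of it Tfap2c, which fell from a mean of 58.2 to 41.7 CPM. Of 3 tested fibroblast markers 1 rose, with sums of 8.74 and 12.1 CPM in siNT and 13.3 and 12.8 CPM in siCnot1, and Dcn was at 0 in every library. Of 4 neural markers 1 rose and 1 fell, with sums of 92.6 and 97.0 CPM in siNT and 138 and 136 CPM in siCnot1. The higher neural sum was that of Tubb3, which rose from a mean of 63.4 to 108 CPM, while Pax6 fell from 4.29 to 2.46 CPM and Sox1, at 8.90 and 6.94 CPM, had no call. Of 6 primitive endoderm markers Dab2 and Pdgfra rose, from means of 4.15 and 3.41 CPM in siNT to 8.39 and 6.90 CPM in siCnot1. The other 4 had no call. Among them Gata4 and Sox17 had log2 fold changes of 0.79 and 0.72, and Gata6 and Sox7 of -0.11 and -0.10. These marker genes were named after their values had been seen.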
